A study of Homo sapiens with 9 samples.

Results

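The genes described here are 10 genes of heme breakdown, heme synthesis and heme transport. HMOX1, HMOX2, BLVRA and BLVRB carry out breakdown, ALAS1, UROD, CPOX and FECH belong to synthesis, and SLC48A1 and FLVCR1 move heme across membranes. They were chosen by gene symbol, and each symbol matched 1 of the 62710 genes in the expression table. All 10 passed the filter on low values (a mean of at least 10 normalized counts over the 9 libraries), which 15230 genes passed.

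RNA was sequenced from A375R, a line of human melanoma cells with resistance to the BRAF inhibitor PLX4032. The cells were exposed for 2 h to 10 µM R4VPL3-1, for 2 h to 10 µM VHL-r, or to DMSO, the solvent, and each group had 3 libraries. R4VPL3-1 is a PROTAC-like molecule, which joins a moiety that binds the ubiquitin ligase RNF4 through a linker to a moiety that recruits the ubiquitin ligase VHL. VHL-r is the VHL-recruiting moiety alone, so it lacks the linker and the RNF4-binding moiety. The control libraries are titled WT with no dose or time, the column names of 2 of the 3 in the expression table carry 2 h, and the series' design gives them as DMSO. A375R was grown with PLX4032 in its medium according to the study's methods, in which no group without PLX4032 is described for these libraries. The 3 libraries of a group were described as biological replicates of this single line, so the errors below measure the spread between cultures of 1 line and not between tumours.

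Heme is the iron-porphyrin cofactor of hemoglobins, cytochromes and many oxidases. Heme oxygenases open the porphyrin ring and release iron, carbon monoxide and biliverdin, and biliverdin reductases convert biliverdin to bilirubin. HMOX1 is known as the inducible heme oxygenase, which responds to oxidative stress, electrophiles and heme itself, whereas HMOX2 is known as the constitutive enzyme. Synthesis starts and ends in mitochondria, and ALAS1, the first and rate-limiting enzyme outside the erythroid lineage, is repressed by heme.

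The libraries held 26435568 to 32085626 reads over all genes. A normalized count is a gene's reads divided by the size factor of its library, and the size factors lay between 0.934 and 1.10. The 10 genes had between 358 and 14614 reads each in a library. On the first principal component the DMSO libraries scored -34.4 to -28 and the VHL-r libraries 9.39 to 13.5. The R4VPL3-1 libraries scored 17.1 to 26.6 on it, with replicate 3 at 17.1, far from DMSO. On the second component the VHL-r libraries scored -15.3 to -13.2 and the DMSO libraries 2.29 to 4.22. There R4VPL3-1 replicates 1 and 2 scored 16.6 and 13.2, whereas R4VPL3-1 replicate 3 scored 4.69, beside DMSO on this component alone. The third component set replicate 3 of every group (10.3 to 16.2) apart from replicates 1 and 2 (-12.6 to -2.5). Of 8 melanocyte lineage markers, 5 had a mean of at least 10, MLANA was at 0 in every library, and the summed level was 20733 to 22517 normalized counts in DMSO, 11788 to 14670 in VHL-r and 10359 to 12525 in R4VPL3-1. SOX10 made up most of that sum, with means of 17547, 10200 and 8405 normalized counts. MITF had means of 1722, 1047 and 1011, and all its treated libraries lay below all its DMSO libraries. The DCT, S100B and PMEL libraries overlapped between the groups. All 4 dedifferentiated melanoma markers had a mean of at least 10, and they summed to 11877 to 13794 in DMSO, 10767 to 11876 in VHL-r and 10693 to 11765 in R4VPL3-1. That sum was mostly AXL (means of 10993, 9751 and 9749.6), and EGFR had means in the opposite order (469, 506 and 585). Of 6 erythroid markers none had a mean of at least 10, and they summed to at most 3.04. Of 5 leukocyte and macrophage markers none had a mean of at least 10, and they summed to 15.4 to 28.5. The 4 keratinocyte markers, of which 3 had a mean of at least 10, summed to 1915 to 2305. KRT10 made up most of that sum, with means of 1886 in DMSO, 1798.5 in VHL-r and 1747 in R4VPL3-1.

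HMOX1 was the 1 member called between R4VPL3-1 and both other groups. Its level was about 16 times that in DMSO after R4VPL3-1, whereas no difference from DMSO was called after VHL-r. HMOX1 (ENSG00000100292, GRCh38 chr22:35380361-35394214, plus strand) stood at 618, 621 and 593 normalized counts in the DMSO libraries, at 644, 695 and 649 in the VHL-r libraries, and at 13646, 11465 and 5951 in the R4VPL3-1 libraries. Every R4VPL3-1 library lay above every library of both other groups, and replicate 3 was the lowest of the R4VPL3-1 libraries. The means were 611 ± 15.3 (SD, n = 3) in DMSO, 663 ± 28.1 (SD, n = 3) in VHL-r and 10354 ± 3966 (SD, n = 3) in R4VPL3-1.

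**Figure D1:**
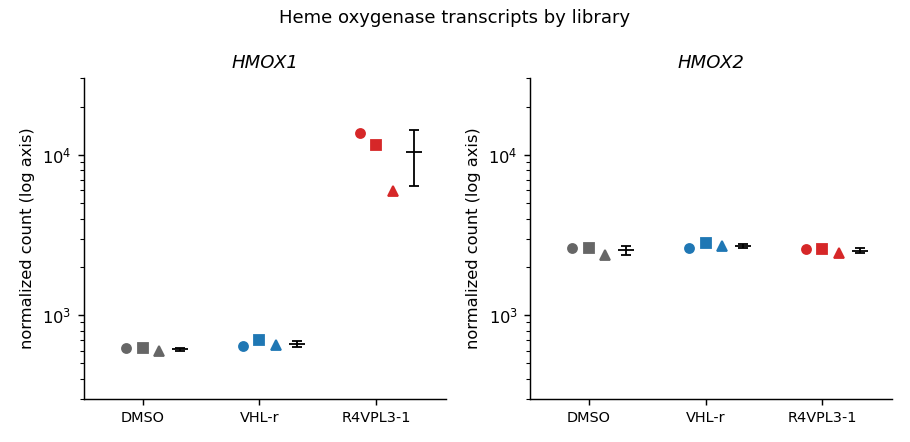
Normalized counts of HMOX1 and HMOX2 in each library (log axis) by treatment. Circles, squares and triangles are replicates 1, 2 and 3, and the black tick with bars is the mean ± SD of 3 libraries. HMOX1 lies between 5951 and 13646 in R4VPL3-1 and at or below 695 elsewhere, whereas HMOX2 stays between 2361 and 2803 in all 9 libraries.

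In the fit across all tested genes (limma on log2(normalized count + 1), Benjamini-Hochberg adjusted p), HMOX1 rose in R4VPL3-1 over DMSO by 4.00 on the log2 scale (SE 0.171, 95% interval 3.64 to 4.35, adjusted p = 3.54e-13). By size this rise ranked 6 among the 15230 genes tested. Over VHL-r it rose by 3.88 (95% interval 3.52 to 4.24, limma adjusted p = 3.27e-12). Both intervals use a spread shared by the 3 groups, whereas HMOX1 scattered most in R4VPL3-1, so they can be too narrow. Under the alternatives other than the replicate block (limma, edgeR or DESeq2), the highest adjusted p was 9.49e-05 over DMSO and 0.00112 over VHL-r. VHL-r against DMSO gave a log2 difference of 0.12 for HMOX1 (95% interval -0.24 to 0.47, limma adjusted p = 0.709). All 3 VHL-r libraries nevertheless lay above all 3 DMSO libraries for this gene. That interval rests on a spread to which the widely scattered R4VPL3-1 libraries contribute, and with the 6 libraries of VHL-r and DMSO alone the limma adjusted p was 0.264. The coefficient of variation of HMOX1 was 38.3% in R4VPL3-1, against 4.24% in VHL-r and less in DMSO. Across the other 29 pairs of a gene and a group it lay between 0.637% and 13.2%, with a median of 3.34%. Without R4VPL3-1 replicate 3, the rise of HMOX1 over DMSO was 4.35 on the log2 scale.

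These are bulk libraries, in which fewer cells with a transcript and less RNA per cell cannot be told apart. SOX10, which makes up most of the summed melanocyte markers, and MITF also had lower means in both treated groups than in DMSO. Their part in the results was not tested.

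HMOX2, the constitutive heme oxygenase, did not share the rise. HMOX2 (ENSG00000103415, chr16:4474690-4510347, plus strand) stood at 2632, 2620.0 and 2361 normalized counts in DMSO, at 2626, 2803 and 2684 in VHL-r, and at 2567, 2576 and 2434.5 in R4VPL3-1. Its R4VPL3-1 libraries lay within the range of the DMSO libraries and below all VHL-r libraries. The log2 difference between R4VPL3-1 and DMSO was -0.0055 (95% interval -0.11 to 0.10, limma adjusted p = 0.957), and its sign changed when libraries were rescaled by TMM factors. Between R4VPL3-1 and VHL-r it was -0.098 (95% interval -0.21 to 0.0099, limma adjusted p = 0.581), and the separation of the libraries was not called.

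Levels of different genes were compared only per kilobase of exon, as normalized counts divided by the summed length of a gene's exons. On this scale HMOX1 stood at 265 ± 6.62 (SD, n = 3) in DMSO and HMOX2 at 751 ± 45.4. In R4VPL3-1 the order was the opposite, with 4490 ± 1720 for HMOX1 and 748 ± 23.4 for HMOX2. The ratio of HMOX1 to HMOX2 per kilobase was 0.344, 0.347 and 0.368 in the DMSO libraries, 0.359, 0.363 and 0.354 in the VHL-r libraries, and 7.79, 6.52 and 3.58 in the R4VPL3-1 libraries. HMOX1 thus lay below HMOX2 in all 6 libraries without R4VPL3-1 and above it in all 3 with it. The HMOX1 level exceeded that of 70.0% of tested genes in DMSO, 72.1% in VHL-r and 98.7% in R4VPL3-1.

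The biliverdin reductases, which act on the product of the heme oxygenases, differed far less. BLVRA (ENSG00000106605, chr7:43758680-43807342, plus strand) stood at 863, 798 and 820.4 normalized counts in DMSO, at 771, 818 and 758 in VHL-r, and at 709.6, 737 and 789 in R4VPL3-1. All R4VPL3-1 libraries lay below all DMSO libraries, with VHL-r overlapping both. The log2 difference between R4VPL3-1 and DMSO was -0.15 (95% interval -0.29 to -0.014), and it missed the threshold after adjustment (limma adjusted p = 0.104). Without R4VPL3-1 replicate 3 the log2 difference was -0.19 and passed it (limma adjusted p = 0.0494).

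BLVRB (ENSG00000090013, chr19:40447765-40465764, minus strand) encodes the second reductase, which also reduces flavins. It stood at 383, 396 and 363 normalized counts in DMSO, at 380.3, 386 and 396 in VHL-r, and at 411, 398 and 413 in R4VPL3-1. The R4VPL3-1 libraries lay above all others by a narrow margin over the highest VHL-r and DMSO libraries, and no difference was called. The log2 difference was 0.099 against DMSO (95% interval -0.064 to 0.26, limma adjusted p = 0.403) and 0.072 against VHL-r (95% interval -0.090 to 0.23, limma adjusted p = 0.883).

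ALAS1 was the member that rose with both compounds. ALAS1 (ENSG00000023330, chr3:52198086-52214327, plus strand) stood at 2156, 2074 and 2045 normalized counts in DMSO, at 2421, 2492 and 2488 in VHL-r, and at 2515, 2553 and 2456 in R4VPL3-1. Every library of both treated groups lay above every DMSO library, whereas the treated groups overlapped each other. It rose by 0.26 on the log2 scale with R4VPL3-1 (95% interval 0.17 to 0.36, a fold of 1.20, limma adjusted p = 0.000214). With VHL-r it rose by 0.24 (95% interval 0.14 to 0.34, a fold of 1.18, limma adjusted p = 0.000726). Both comparisons use the same DMSO libraries. Between the compounds the log2 difference was 0.024 (95% interval -0.073 to 0.12, limma adjusted p = 0.941). Without any 1 of the 9 libraries, both rises of ALAS1 were still called.

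The sequence before the start of ALAS1 is shown because ALAS1 is the member that rose with both compounds. It comes from RefSeq (GRCh38.p14), whose promoter table held 9 of the 10 genes, the exception being HMOX1. The 250 bases before the start, chr3:52197833-52198082 on the plus strand, have a GC content of 67.2%, and the capitals mark the letters GGGCGG of a GC box, read on the minus strand.
ALAS1: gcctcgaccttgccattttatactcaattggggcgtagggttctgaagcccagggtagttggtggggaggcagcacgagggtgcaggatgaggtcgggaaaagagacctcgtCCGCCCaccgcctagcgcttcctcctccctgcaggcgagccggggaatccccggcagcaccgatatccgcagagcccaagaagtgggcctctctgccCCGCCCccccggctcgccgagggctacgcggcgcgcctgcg
The GC box was found on either strand in all 9 windows and in 42.6% of the 35116 windows of the table. The antioxidant response element TGACNNNGC was found in the FECH window and in 10.9% of all windows, and the E-box CACGTG was found in the HMOX2 window and in 6.34% of all windows. Each was searched on both strands. The AP-1 letters TGANTCA (6.57% of all windows), the cAMP response element TGACGTCA (1.65%), the heat shock element (0.441%) and the nuclear respiratory factor 1 core (5.07%) were in none of the 9. A match is a run of letters and not a binding site, and its absence holds for these windows alone. The windows follow RefSeq starts, which can differ from the gene positions given in these Results. Those of UROD and SLC48A1 lie inside these positions, and those of HMOX2, BLVRB, CPOX and FECH overlap them in part.

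The later enzymes of synthesis did not pass the test in any comparison. UROD, which decarboxylates uroporphyrinogen in the cytosol (ENSG00000126088, chr1:45010950-45015575, plus strand), stood at 1826, 1880.1 and 1857 normalized counts in DMSO, at 1695, 1833 and 1910.2 in VHL-r, and at 1762, 1892 and 1808 in R4VPL3-1. CPOX, which oxidises coproporphyrinogen (ENSG00000080819, chr3:98579446-98593648, minus strand), stood at 1236, 1185 and 1195 in DMSO, at 1229.9, 1158 and 1188 in VHL-r, and at 1197, 1266 and 1109 in R4VPL3-1. For both genes all 3 groups overlapped. The log2 difference between R4VPL3-1 and DMSO was -0.027 for UROD (95% interval -0.14 to 0.085) and -0.019 for CPOX (95% interval -0.14 to 0.10), with limma adjusted p of 0.770 and 0.859. In CPOX, 5.16% of exon bases lay under another gene on the same strand, and reads there could be counted to either gene or to none.

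FECH, the last enzyme, inserts iron into protoporphyrin (ENSG00000066926, chr18:57544377-57586732, minus strand). It stood at 770.04, 799 and 747 normalized counts in DMSO, at 896, 892 and 754 in VHL-r, and at 848, 844 and 837 in R4VPL3-1. The R4VPL3-1 libraries lay above all DMSO libraries, and of the VHL-r libraries replicate 3 lay among the DMSO values. The log2 difference from DMSO was 0.13 with R4VPL3-1 (95% interval -0.019 to 0.27, limma adjusted p = 0.205) and 0.13 with VHL-r (95% interval -0.016 to 0.28, limma adjusted p = 0.223). Without VHL-r replicate 3 the second of these was 0.21 and was called (limma adjusted p = 0.0302).

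Both transporters also missed the test in all comparisons. SLC48A1 (HRG1), which brings heme out of endosomes and lysosomes (ENSG00000211584, chr12:47753916-47782751, plus strand), stood at 518, 507 and 515 normalized counts in DMSO, at 473, 487 and 516 in VHL-r, and at 525, 542 and 421 in R4VPL3-1. The R4VPL3-1 libraries spread on either side of the DMSO libraries, with replicate 3 the lowest of all 9. FLVCR1, a transporter first described as a heme exporter (ENSG00000162769, chr1:212858275-212899363, plus strand), stood at 1589, 1627 and 1497 in DMSO, at 1683, 1611 and 1563 in VHL-r, and at 1632, 1577 and 1617 in R4VPL3-1. The groups overlapped for both genes. The log2 difference between R4VPL3-1 and DMSO was -0.058 for SLC48A1 (95% interval -0.24 to 0.12, limma adjusted p = 0.690) and turned to 0.056 without R4VPL3-1 replicate 3. For FLVCR1 it was 0.035 (95% interval -0.076 to 0.15, limma adjusted p = 0.693).

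**Figure D2:**
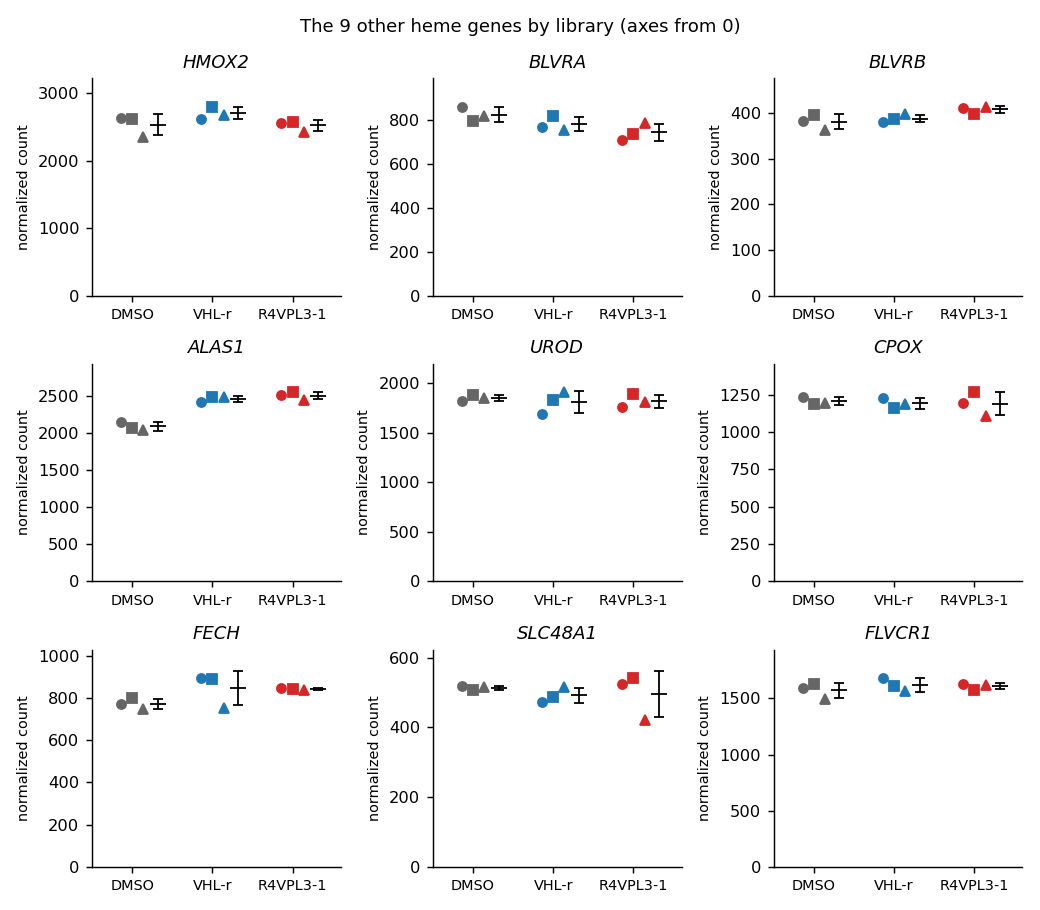
Normalized counts of the 9 members other than HMOX1, one panel per gene, in each library by treatment. Circles, squares and triangles are replicates 1, 2 and 3, and the black tick with bars is the mean ± SD of 3 libraries. The ALAS1 panel alone has both treated groups clear of DMSO, with DMSO at or below 2156 and the treated libraries at or above 2421.

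Counted over the 10 genes, 2 were called higher in R4VPL3-1 than in DMSO (HMOX1 and ALAS1) and 0 lower, where 13.1% of all tested genes were called higher and 11.8% lower. For VHL-r against DMSO 1 was called higher (ALAS1) and 0 lower, beside 10.3% and 9.51% of all tested genes. For R4VPL3-1 against VHL-r, 1 was called higher (HMOX1) and 0 lower, beside 1.14% and 0.729%. At an unadjusted p under 0.05, limma, edgeR and DESeq2 each found 1 member lower in R4VPL3-1 than in DMSO (BLVRA) and 0 lower in both other comparisons, and edgeR and DESeq2 also called 0 lower. In either direction, 24.9% of tested genes were called for R4VPL3-1 against DMSO, 19.8% for VHL-r against DMSO and 1.87% for R4VPL3-1 against VHL-r, so the counts of members called against DMSO, 2 and 1 of 10, were near the background. The median log2 difference of the 10 genes was 0.015 for R4VPL3-1 against DMSO, 0.035 for VHL-r against DMSO and -6.6e-05 for R4VPL3-1 against VHL-r, beside -0.0063, -0.0045 and -0.0056 over all tested genes. The first and second comparison share their DMSO libraries and the third shares libraries with both.

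**Figure D3:**
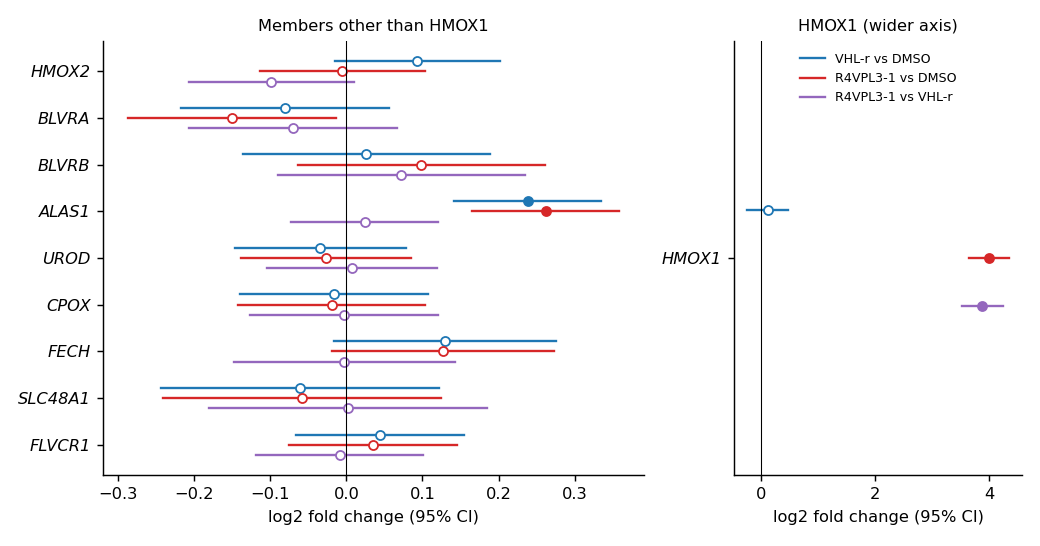
Log2 differences of the 10 genes with 95% intervals in the 3 comparisons (limma, log2(normalized count + 1)). HMOX1 has a panel of its own with a wider axis, filled points were called at an adjusted p of at most 0.05, and open points were not. HMOX1 stands at 4.00 and 3.88 in both comparisons with R4VPL3-1, and ALAS1 is called at 0.26 and 0.24 against DMSO.

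R4VPL3-1 and VHL-r were given at the same dose for the same time and make up 1 pair of compounds. Of the 10 genes, HMOX1 differed between them. For the other 9, the log2 difference between R4VPL3-1 and VHL-r lay between -0.098 and 0.072, every 95% interval lay within -0.21 to 0.23, and limma adjusted p ranged from 0.581 to 0.998. Differences beyond a gene's own interval were not seen at this number of libraries, and those within it could not be told apart from each other. Among the R4VPL3-1 libraries, replicate 3 was the lowest for 6 of the 10 genes and the highest for 2. The other groups each held such a library too. In DMSO, replicate 3 was the lowest for 6 and the highest for 0, and in VHL-r, replicate 1 was the lowest for 6 and the highest for 3.

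Per kilobase of exon, ALAS1 was the most abundant of the 10 in DMSO and FECH the least, at 825 ± 22.6 and 69.4 (mean of 3 libraries). The order in DMSO and VHL-r was ALAS1, HMOX2, UROD, BLVRA, CPOX, HMOX1, FLVCR1, BLVRB, SLC48A1 and FECH. Neighbours in that order had separate library ranges except UROD and BLVRA, and FLVCR1 and BLVRB, which overlapped. In R4VPL3-1 HMOX1 moved from the sixth place to the first, ahead of ALAS1 at 989 ± 19.3. Behind it BLVRA and CPOX overlapped, as did BLVRB and FLVCR1, with BLVRB ahead. Where each gene's longest transcript was used for its length, HMOX2 led in DMSO and VHL-r, with ALAS1 behind UROD and overlapping it in DMSO, so the order among the abundant genes depends on the length used, whereas HMOX1 was still sixth in those groups and first in R4VPL3-1.

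Beyond the 10 genes, a wider list held 33 genes, of which 28 passed the filter on low values. It covered heme synthesis, mitochondrial supply, control of ALAS1 protein, heme transport and binding, electron supply and bilirubin conjugation, and heme-sensing factors. For R4VPL3-1 against DMSO, 3 of the 28 were called higher (ALAD, LRP1 and POR) and 0 lower, for VHL-r against DMSO 1 higher (ALAD) and 0 lower, and for R4VPL3-1 against VHL-r 1 higher (LRP1) and 0 lower. The background shares are those given above. At an unadjusted p under 0.05, limma found 3, 2 and 1 of the 28 lower in these comparisons, edgeR 2, 2 and 1, and DESeq2 1, 2 and 0. The medians over the 28 genes were -0.014, 0.00083 and 0.018 on the log2 scale. Of the 5 genes that did not pass, ALAS2, the erythroid form of ALAS1, was at 0 in all 9 libraries. ABCB6 and UGT1A1 were at 0 too, but 54.6% and 50.1% of their exon bases lay under other genes on the same strand, so these zeros are uncertain.

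ALAD, the second enzyme of synthesis, stood at 1321, 1390.2 and 1465 normalized counts in DMSO, at 1598, 1541 and 1722 in VHL-r, and at 1595, 1655 and 1659 in R4VPL3-1. As for ALAS1, all treated libraries lay above all DMSO libraries and the treated groups overlapped. It rose by 0.23 on the log2 scale with R4VPL3-1 (limma adjusted p = 0.00406) and by 0.22 with VHL-r (limma adjusted p = 0.00853). The second call was lost without DMSO replicate 1 (limma adjusted p = 0.0544).

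LRP1, the receptor that takes up heme bound to hemopexin, stood at 1322, 1154 and 1374 normalized counts in DMSO, at 1619, 1309.9 and 1516 in VHL-r, and at 1694, 1877 and 1911 in R4VPL3-1. The R4VPL3-1 libraries lay above all others. The rise was 0.51 on the log2 scale over DMSO (limma adjusted p = 3.04e-05) and 0.31 over VHL-r (limma adjusted p = 0.0386). The latter call was lost without VHL-r replicate 2, VHL-r replicate 3, R4VPL3-1 replicate 2 or R4VPL3-1 replicate 3, with adjusted p of 0.341, 0.0706, 0.174 and 0.107.

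POR, the reductase that hands electrons to heme oxygenases and cytochromes P450, stood at 1586, 1516 and 1502 normalized counts in DMSO, at 1573, 1777 and 1794 in VHL-r, and at 1806, 1847 and 1682 in R4VPL3-1. It rose by 0.21 on the log2 scale in R4VPL3-1 over DMSO (limma adjusted p = 0.0108), and the call was lost without R4VPL3-1 replicate 2 (limma adjusted p = 0.0582). VHL-r replicate 1 lay among the DMSO values, and VHL-r against DMSO was not called (0.16 on the log2 scale, limma adjusted p = 0.0655).

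The genes whose pattern was most like that of HMOX1 over the 9 libraries were sought among the 15229 other tested genes by Pearson's r of log2(normalized count + 1). The 9 libraries share their treatment groups, so r mainly reflects the difference of R4VPL3-1 from the rest, and no p is given. The 5 nearest were HSPA8 (r = 0.990), NMRAL2P (0.988), DNAJA1 (0.988), HSPA1A (0.987) and CCDC117 (0.987), and 46 genes reached an r of at least 0.95. Pearson's r does not reflect the size of a change. The log2 rise in R4VPL3-1 over DMSO was 0.76 for HSPA8, 2.38 for NMRAL2P and 0.49 for DNAJA1. It was 4.72 for HSPA1A and 0.57 for CCDC117, beside 4.00 for HMOX1. In each of the 5, R4VPL3-1 replicate 1 was the highest and replicate 3 the lowest of the R4VPL3-1 libraries, as for HMOX1, which choosing the genes by r over these same libraries favours. By Spearman's rho, 1 of these 5 was still among the nearest 5.

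HSPA1A, a stress-inducible chaperone, had 618, 646 and 561 normalized counts in DMSO, 882, 989.5 and 1089 in VHL-r, and 18274, 16727 and 13459 in R4VPL3-1. The 3 groups did not overlap, and unlike HMOX1 it was called higher in VHL-r than in DMSO (0.69 on the log2 scale, limma adjusted p = 6.5e-06). HSPA1B is a near-identical copy, so the division of reads between the copies is uncertain. NMRAL2P, annotated as a long non-coding RNA, had 9.99, 6.89 and 10.1 normalized counts in DMSO, 9.01, 7.35 and 9.22 in VHL-r, and 66.3, 54.7 and 35.3 in R4VPL3-1. The levels of NMRAL2P were low throughout, and R4VPL3-1 was clear of both other groups. Among the members, r with HMOX1 was 0.718 for BLVRB, 0.587 for ALAS1 and -0.708 for BLVRA, and between -0.279 and 0.339 for the other 6.

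**Figure D4:**
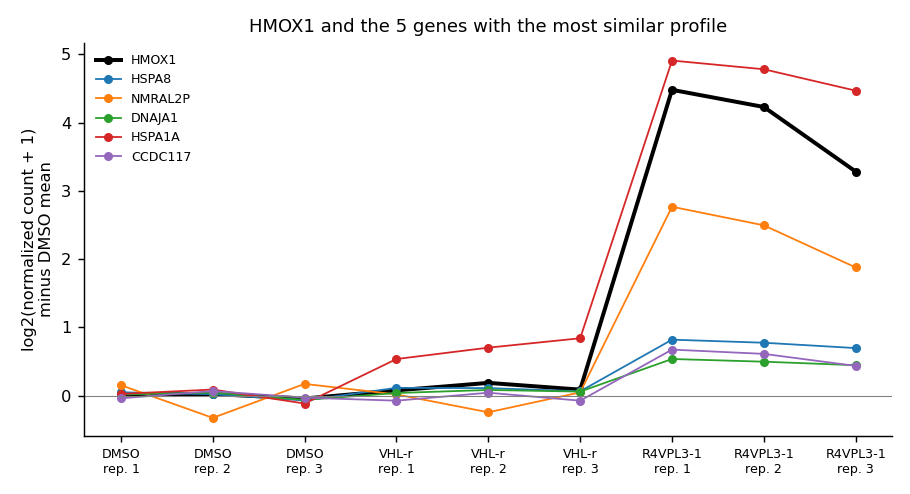
Log2(normalized count + 1) of HMOX1 and of the 5 genes most like it across the 9 libraries, each shown relative to its own mean over the DMSO libraries. All 6 genes are higher in the 3 R4VPL3-1 libraries, with replicate 3 the lowest of them. HSPA1A, HSPA8 and HMOX1 are also above all their DMSO values in the VHL-r libraries, a difference that was called for HSPA1A alone.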

How the data were processed

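Poly(A)-selected RNA from 9 A375R libraries, 3 per group, was sequenced by the authors with a directional kit, aligned to GRCh38 with STAR and counted per gene by strand with htseq-count. The deposited values are a signal: the authors' read counts divided by DESeq2 1.36.0 size factors (version from the submitters' processing notes). Multiplying back gave whole reads (within 0.1) for 100% of values; R4VPL3-1 replicate 2 and VHL-r replicate 1 had size factors near 1 (1.01 and 0.999), so their low values alone could not show this. In all, 0 value columns were left unused. Intervals carry 95% confidence.

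The main test was limma 3.58.1 (trend) on log2(value + 1) for genes with a mean of at least 10, fitted to all 9 libraries with treatment as the sole factor. A gene was called where its p, adjusted over all tested genes by Benjamini-Hochberg, was at most 0.05. Because a pseudocount of 1 was added, fold changes understate those of low genes. Alternatives were other pseudocounts and filters, rescaling by TMM or the upper quartile, a robust fit, a replicate block, the compared libraries alone, each library left out, and count models fitted to the recovered reads (edgeR 4.0.16, DESeq2 1.42.0). R 4.3.3 and Python 3.11.15 were used, and the fitting code was tested on simulated data.

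All 10 members were named, together with wider-list genes called in at least 1 comparison and the 5 genes most like HMOX1. The members, lists and markers were chosen with earlier results of these data known. Total reads per library (26435568 to 32085626) and 3 libraries per group set the precision.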

Additional observations from a re-analysis of the deposited data

How the results depend on the processing

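HMOX1 (R4VPL3-1 against DMSO and against VHL-r) and ALAS1 (each compound against DMSO) were called under every alternative tried, the log2 rise of HMOX1 over DMSO ranging from 3.76 to 4.35. Leaving out 1 library at a time gave 113 to 232 genes higher and 68 to 126 lower for R4VPL3-1 against VHL-r, 0 to 1 member lower for R4VPL3-1 against DMSO and 1 to 2 members higher for VHL-r against DMSO. In the wider list it gave 0 to 1 higher for R4VPL3-1 against VHL-r, 0 to 2 higher and 0 to 2 lower for VHL-r against DMSO, and 0 to 1 lower for R4VPL3-1 against DMSO. Wider genes higher in R4VPL3-1 than in VHL-r numbered 0 with no filter and with the robust fit. Wider genes lower than DMSO numbered 1 for R4VPL3-1 (ABCB10) with a mean of at least 50, upper-quartile rescaling, the robust fit or the 6 compared libraries, and 1 for VHL-r (HEBP2) with a pseudocount of 0.1 or a mean of at least 50. Spearman's rho left 1 of the 5 genes nearest HMOX1. The causes were not tested.

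Same-numbered libraries had correlations of deviations from -0.00559 to 0.121 and others from -0.148 to 0.0982. Not every library correlated best with its own number, so the numbers were not taken as pairs, although replicate 3 stood apart in all groups on the third principal component. With a replicate block, 2187 genes were higher and 2054 lower for R4VPL3-1 against DMSO, 1767 and 1684 for VHL-r against DMSO, and 228 and 161 for R4VPL3-1 against VHL-r. No member's call changed under the block, and in the wider list 3 genes were then higher and 1 lower for VHL-r against DMSO, and 1 lower for R4VPL3-1 against DMSO.

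Signs turned for differences near 0, none of them called. With TMM rescaling these were CPOX (0.0014) and FECH (0.0020) for R4VPL3-1 against VHL-r and HMOX2 (0.0022) for R4VPL3-1 against DMSO. With edgeR they were CPOX (0.0044) and HMOX2 (0.0027) in the same comparisons, and with the upper quartile SLC48A1 (-0.013) and UROD (-0.0083) for R4VPL3-1 against VHL-r. Leaving out 1 library gave, for R4VPL3-1 against VHL-r, -0.048 to 0.047 for CPOX, -0.084 to 0.040 for FECH, -0.034 to 0.019 for FLVCR1, -0.066 to 0.12 for SLC48A1 and -0.040 to 0.046 for UROD. For R4VPL3-1 against DMSO it gave -0.064 to 0.031 for CPOX, -0.057 to 0.022 for HMOX2 and -0.13 to 0.056 for SLC48A1. For VHL-r against DMSO it gave -0.0073 to 0.054 for BLVRB, -0.039 to 0.0048 for CPOX and -0.073 to 0.013 for UROD. Having 3 libraries per group of 1 line set the size of difference that could be resolved.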
